A study of Homo sapiens with 6 samples.

Results

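The genes described here are 40 genes of cell adhesion, extracellular matrix and epithelial-mesenchymal transition (EMT), chosen by symbol from a list of integrins, laminins, collagens, matricellular proteins, matrix proteases and inhibitors, cadherins and EMT regulators. All 40 were found among the 40173 genes of the count table. RNA-Seq libraries labelled as A549, a human lung adenocarcinoma cell line, were compared between cells transfected with an siRNA against the long noncoding RNA FAM83H-AS1 (silenced, 3 libraries) and cells transfected with a scrambled negative control (control, 3 libraries). Both groups were transfected cells of a single line harvested the day after transfection, no group was left untransfected, and the study does not state which of its siRNAs was sequenced. The comparison addresses how mRNA levels differed once FAM83H-AS1 had been reduced. Nothing in the labels ties the libraries of a group to separate cultures, so p-values measure the spread between these libraries, which may be technical.

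Cells hold on to the matrix through integrins, receptors made of an alpha and a beta subunit that bind laminins, collagens and fibronectin outside the cell and link them to actin inside it. Laminins and type IV collagen build the basement membrane under epithelia, while matricellular proteins such as CYR61, CTGF and thrombospondin 1 modulate adhesion without being structural. In EMT, epithelial cells lose the adhesion molecule E-cadherin and gain mesenchymal genes such as vimentin and N-cadherin under transcription factors of the SNAI and ZEB families, a process studied in lung adenocarcinoma for its part in invasion.

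Library totals ranged from 9738291 to 17742643 counts, and 21021 to 22202 genes had at least 1 count. Control replicate 3 was the deepest library and stood apart from the other controls, its chi-square per degree of freedom being 29.7 and 25.3 against them, whereas the other replicate pairs ranged from 4.20 to 10.3. Values are given in CPM, read counts scaled to a common library size after TMM normalization, and a count of 3, taken as the floor, equalled 0.177 to 0.308 CPM. A gene passed the test with an adjusted p under 0.05 in edgeR's quasi-likelihood test over 15250 genes, and was called differentially expressed when its fold change was also over 2. Log2 fold changes above 0 stand for higher levels in the silenced libraries. The targeted FAM83H-AS1 was read at 15.9 ± 1.39 CPM in the control and at 4.87 ± 0.617 CPM in the silenced libraries (SD, n = 3), with a log2 fold change of -1.70 (SE 0.148, adjusted p = 7.99e-05).

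The labelled cell line was checked against marker genes before any comparison. The keratin genes KRT8, KRT18 and KRT7 were high, at control means of 1863, 1316 and 1413 CPM, but the epithelial markers KRT19, EPCAM and CDH1 had control means of only 0.944, 3.86 and 0.780 CPM. AKR1B10, an aldo-keto reductase known to be high in A549, had 0.843 CPM in the control and 2.09 CPM in the silenced libraries. CDKN2A and MTAP lie in a region known to be homozygously deleted in A549, yet were read at 48.2 to 74.8 CPM and 32.6 to 39.2 CPM over the 6 libraries. These 2 genes were looked up after the marker values had been seen. The data thus go against the label on these points, and the samples are called libraries labelled A549 throughout. Of the alveolar type II markers, ABCA3 was read at 161 to 244 CPM, while SFTPA1 was at 0 and NKX2-1, SFTPA2, SFTPB, SFTPC and NAPSA had means of at most 0.601 CPM in either group. These 7 markers summed to 203 to 245 CPM in the control and 162 to 172 CPM in the silenced libraries. ABCA3, the only 1 tested, passed with a log2 fold change of -0.44.

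Of the 40 genes, 38 passed the filter on low counts and were tested. After silencing, 12 of them rose and 2 fell, and 24 did not pass. The 12 make up 31.6% of the tested members, against 8.75% of all tested genes that rose, and the 2 make up 5.26%, against 8.27% of all tested genes that fell. Over all genes with a mean of at least 10 CPM across the 6 libraries, 10.7% rose and 10.8% fell. The members were chosen with earlier results of these data known, so these shares are a description and no independent support. None was called with a fold change over 2, by edgeR, by DESeq2 or at an unadjusted p under 0.05, while 2.14% of all tested genes were called by edgeR. At an unadjusted p under 0.05, 20 members differed, and DESeq2 passed 16.

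The log2 fold changes of the 38 genes ranged from -0.44 to 0.93 with a median of 0.12, against a median of -0.00067 over all tested genes. All silenced libraries lay above all control libraries for 17 members, and below them for 5, compared with 19.1% and 17.5% of all tested genes. With 3 libraries against 3, the smallest p an exact permutation test can give is 0.1. Fewer members rose in every fit that left out 1 library, and these fits have fewer samples. The count that rose was 7 without silenced replicate 1, 8 without control replicate 1 or silenced replicate 3, and 11 without control replicate 3. Without silenced replicate 1, 0 fell, and 1 member fell when control replicate 2 or control replicate 3 was left out. In bulk libraries such as these, fewer cells of a type and less RNA per cell cannot be told apart.

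**Figure D1:**
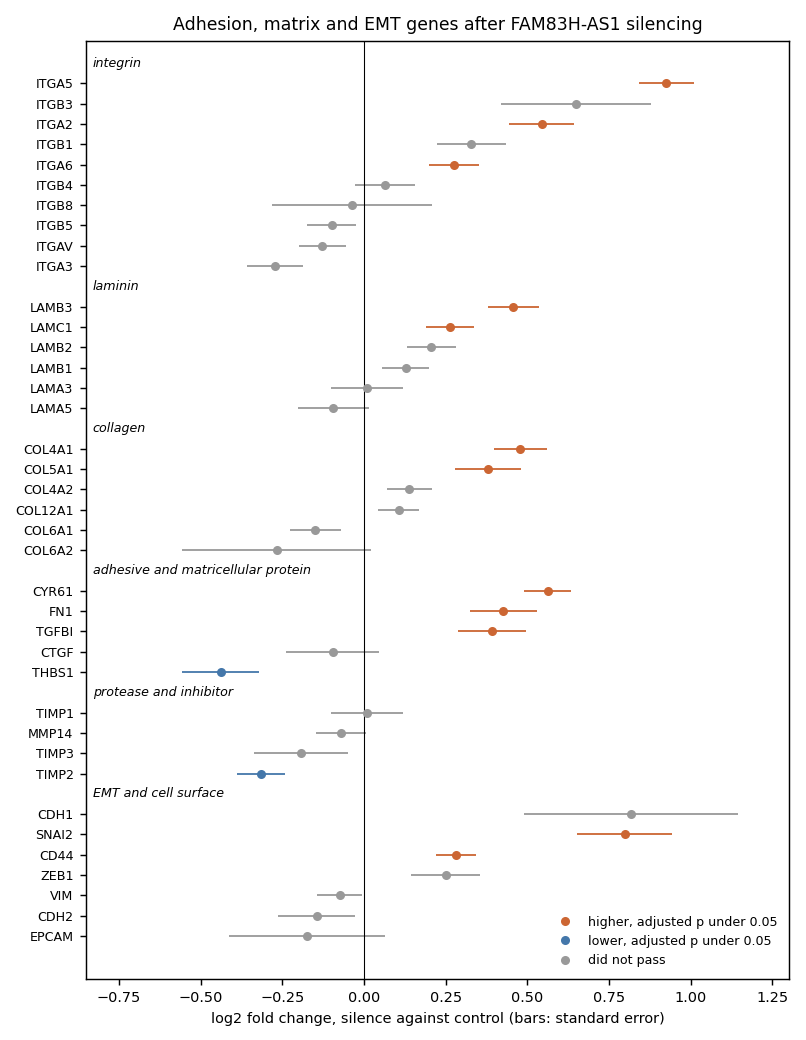
Log2 fold change, silenced against control, of the 38 tested genes by role, with bars for the standard error. The 12 genes that rose reach from 0.26 to 0.93, and the 2 that fell, THBS1 and TIMP2, lie at -0.44 and -0.31.

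Of the 10 integrin members, the alpha subunits ITGA5, ITGA2 and ITGA6 rose, and the other 7 did not pass. ITGA5 had the largest log2 fold change of all 38 tested members. ITGA3, at a log2 fold change below 0, and ITGB1, at one above 0, came close to the threshold. Summed over the integrin members, the level was 1516 to 1596 CPM in the control and 1691 to 1887 CPM in the silenced libraries. ITGA5 alone made up this separation, at 276 to 291 CPM in the control and 469 to 576 CPM in the silenced libraries. Without ITGA5, the sums of the groups overlapped.

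ITGA5 encodes the alpha5 subunit, which pairs with beta1 to form the main fibronectin receptor. It was read at 281, 276 and 291 CPM in the control libraries and at 576, 469 and 565 CPM in the silenced libraries. The lowest silenced library was thus well above the highest control library. Its mean, given with the SD over 3 libraries, rose from 283 ± 7.68 to 537 ± 59.0 CPM, and the log2 fold change was 0.93 (SE 0.0849, adjusted p = 0.000103), or 1.90-fold. Without silenced replicate 2, its lowest silenced library, the log2 fold change was 1.01. The gene lies on the minus strand at chr12:54395261-54419460 (GRCh38, GENCODE 29), and GENCODE annotates an antisense gene opposite it. Whether the counting used strand is not stated, so reads of the 2 strands may be mixed.

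The 250 bases before the ITGA5 start and those before the CTGF start, from RefSeq on GRCh38.p14, are shown because TEAD, the partner of the coactivators YAP and TAZ, has a known motif, GGAATG, and because ITGA5 rose while CTGF, a known target of YAP, did not pass. Capitals mark GGAATG. The windows are chr12:54419267-54419516 for ITGA5 and chr6:131951373-131951622 for CTGF, both read on the minus strand.
ITGA5: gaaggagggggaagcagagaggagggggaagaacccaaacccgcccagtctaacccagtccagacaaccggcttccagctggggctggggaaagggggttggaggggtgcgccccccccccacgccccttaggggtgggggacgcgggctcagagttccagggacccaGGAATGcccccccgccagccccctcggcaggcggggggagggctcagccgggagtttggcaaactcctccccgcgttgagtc
CTGF: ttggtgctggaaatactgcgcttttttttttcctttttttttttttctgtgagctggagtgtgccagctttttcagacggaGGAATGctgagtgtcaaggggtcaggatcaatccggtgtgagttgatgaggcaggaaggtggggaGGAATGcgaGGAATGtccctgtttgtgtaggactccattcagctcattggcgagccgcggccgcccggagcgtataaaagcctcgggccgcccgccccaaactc
The ITGA5 window holds the motif once, 82 bases before the RefSeq start, and the CTGF window holds it 169, 104 and 95 bases before the start. For ITGA5, both the RefSeq start and the motif lie inside the GENCODE gene body given above. Of the 40 genes, 31 had windows of this kind, 46 in all. CYR61, SNAI2 and TIMP2, which passed the test, had no window and were not searched. Searched on both strands, 6 of the 46 windows held GGAATG (13.0%, for ITGA5, ITGB1, COL12A1, THBS1, CTGF and SPARC), close to the 11.9% of all 35116 promoters. Only 29 of all promoters (0.0826%) hold 3 or more copies. Of the 5 tested members with it, ITGA5 rose, THBS1 fell and the other 3 did not pass. The same windows were searched for the AP-1 motif TGAGTCA and the E-box CAGGTG. These were held by 4.35% and 15.2% of the windows, against 4.20% and 17.5% of all promoters. A motif match is a description of the letters and not of binding.

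ITGA2, the alpha2 subunit of a collagen receptor at chr5:52989326-53094779, was at 29.0, 32.1 and 30.9 CPM in the control and 50.0, 39.7 and 44.6 CPM in the silenced libraries, without overlap. The log2 fold change was 0.54 (SE 0.0985, adjusted p = 0.00477). ITGA6, the alpha6 subunit of laminin receptors at chr2:172427354-172506282, showed a smaller difference, from 61.2, 60.2 and 60.6 CPM to 67.8, 75.5 and 77.0 CPM. Its controls were nearly equal, and the log2 fold change was 0.28 (SE 0.0767, adjusted p = 0.0317), which did not pass when any single library other than silenced replicate 1 was left out. Antisense genes are annotated opposite ITGA6 too.

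ITGB1, the beta1 partner of ITGA5, ITGA2, ITGA6 and ITGA3, was at 168, 223 and 183 CPM in the control and 222, 264 and 234 CPM in the silenced libraries, with overlap between control replicate 2 and silenced replicate 1. Its log2 fold change of 0.33 (SE 0.106, adjusted p = 0.0549) did not pass. ITGA3, a laminin-binding alpha subunit, had 425, 375 and 401 CPM in the control and 336, 295 and 363 CPM in the silenced libraries. Here each silenced library was below each control library, and the log2 fold change was -0.27 (SE 0.0864, adjusted p = 0.0518). ITGB3 was low, at 3.37 ± 0.689 and 5.37 ± 0.950 CPM (SD, n = 3), with a log2 fold change of 0.65 (SE 0.230, adjusted p = 0.0756). The remaining subunits had small differences, with log2 fold changes of 0.06 for ITGB4 (95% interval -0.14 to 0.27), -0.13 for ITGAV, -0.10 for ITGB5 and -0.04 for ITGB8.

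Levels per kilobase were divided by the length of all exons in a gene's GENCODE basic transcripts. A ranking between genes therefore depends on which transcripts are annotated. By this measure, ITGA3 led the integrins in the control with 81.9 ± 5.17 CPM per kb (SD, n = 3), followed by ITGA5 with 63.6 ± 1.73. ITGB5, ITGB1 and ITGB4 followed at 48.7 ± 3.81, 48.6 ± 7.25 and 47.8 ± 4.88 CPM per kb, and did not differ from each other beyond their spread. ITGA6 and ITGAV stood lower, at 10.4 ± 0.0836 and 9.00 ± 0.268 CPM per kb, and ITGA2, ITGB3 and ITGB8 lower still, at 3.90 ± 0.201, 0.766 ± 0.157 and 0.372 ± 0.0525. In the silenced libraries ITGA5 came before ITGA3, at 121 ± 13.3 against 67.8 ± 7.06 CPM per kb. The count ratio of ITGA5 to ITGB1 was 1.68, 1.24 and 1.59 in the control and 2.60, 1.78 and 2.42 in the silenced libraries, without overlap (p = 0.1 in a two-sided exact permutation test, the smallest possible). Ratios between members were computed for 8 pairs, of which 6 gave this smallest p, or 0.133 after Benjamini-Hochberg adjustment of the exact permutation tests. The other 2, LAMB3 to LAMB1 and TIMP2 to TIMP1, gave p = 0.2 in the exact test, adjusted 0.2.

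**Figure D2:**
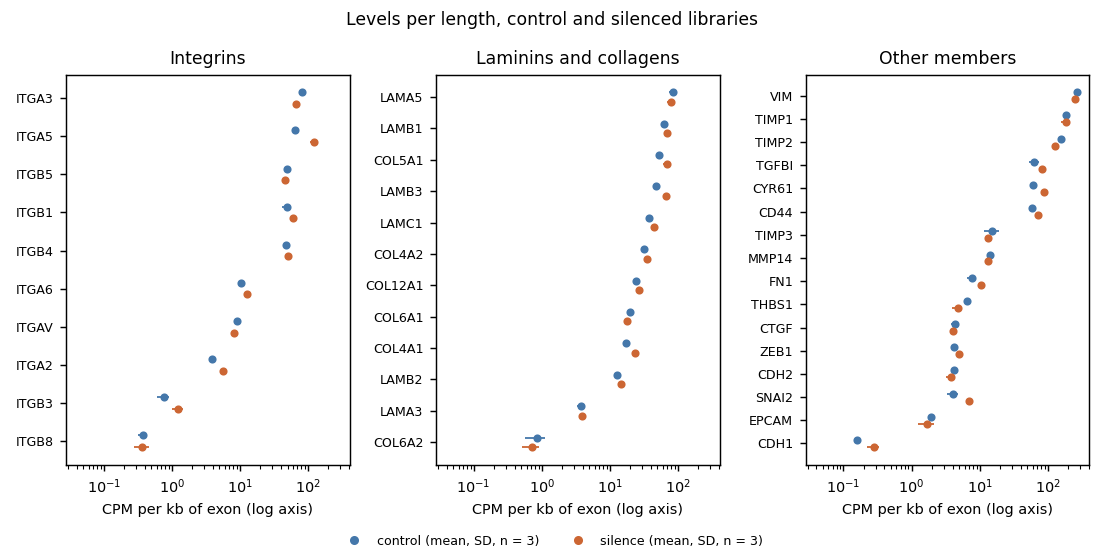
Level in CPM per kb of exon (log axis) of the tested genes in control and silenced libraries, as mean and SD of 3 libraries. ITGA3 is above ITGA5 in the control (81.9 against 63.6) and below it after silencing (67.8 against 121).

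Among the laminin chains, LAMB3 and LAMC1 rose, and LAMA3, LAMA5, LAMB1 and LAMB2 did not pass. LAMB3, the beta3 chain of laminin-332, was at 235, 213 and 200 CPM in the control and 311, 282 and 296 CPM in the silenced libraries. All silenced libraries were higher, and the log2 fold change was 0.46 (SE 0.0781, adjusted p = 0.00365). LAMA3, the alpha chain of the same laminin, was at 42.2 ± 6.35 and 42.7 ± 2.69 CPM (SD, n = 3), with a log2 fold change of 0.01 (95% interval -0.23 to 0.25). LAMC1, the gamma1 chain shared by most laminins, was at 271, 296 and 316 CPM in the control and 341, 367 and 352 CPM in the silenced libraries. This smaller difference had a log2 fold change of 0.26 (SE 0.0744, adjusted p = 0.0342), and it did not pass in 5 of the 6 fits that left out a library, the exception being the fit without control replicate 3.

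LAMB2, with 72.7 ± 2.46 CPM in the control and 83.9 ± 4.29 CPM in the silenced libraries (SD, n = 3), was higher in every silenced library without passing (log2 fold change 0.21, SE 0.0748, adjusted p = 0.0824). LAMB1 and LAMA5 had log2 fold changes of 0.13 and -0.09. LAMA5 was the laminin chain with the highest level per length, 84.4 ± 9.48 CPM per kb in the control and 79.1 ± 10.6 in the silenced libraries (SD, n = 3). LAMA5 overlaps ADRM1 and LAMB1 overlaps DLD, each on the opposite strand, with 17287 and 6318 counts of the neighbour over all libraries.

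COL4A1 and COL5A1 rose among the 6 collagens, and COL4A2, COL6A1, COL6A2 and COL12A1 did not pass. COL4A1 encodes the alpha1 chain of the network-forming collagen of basement membranes and had 122, 124 and 140 CPM in the control and 171, 191 and 176 CPM in the silenced libraries. Its log2 fold change was 0.48 (SE 0.0808, adjusted p = 0.00339). COL4A2 encodes the alpha2 chain, which assembles with alpha1, and had 406, 409 and 411 CPM in the control and 466, 467 and 416 CPM in the silenced libraries. The groups did not overlap here either, but the log2 fold change was only 0.14 (SE 0.0696, adjusted p = 0.196, 95% interval -0.01 to 0.29).

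These 2 genes lie on opposite strands of chromosome 13 and are transcribed away from a shared promoter region. In GENCODE 29 their annotated bodies overlap by 1422 bases, with 0 pairs of overlapping exons. In RefSeq on GRCh38.p14, the bases between their starts are chr13:110307158-110307283, shown on the plus strand from the COL4A1 side to the COL4A2 side. Capitals mark GGGCGG, a core letter string of the GC box bound by SP1.
COL4A1-COL4A2: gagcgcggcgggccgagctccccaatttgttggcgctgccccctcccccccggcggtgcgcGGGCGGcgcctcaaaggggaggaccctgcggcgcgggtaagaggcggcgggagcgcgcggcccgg
This stretch of 126 bases has a GC content of 80.2% and, searched on both strands, holds 1 copy of GGGCGG, a string found in 34.6% of all promoter windows of the same length. The count ratio of COL4A1 to COL4A2 was 0.300, 0.302 and 0.341 in the control and 0.366, 0.409 and 0.422 in the silenced libraries. The ratio was therefore higher throughout the silenced group (p = 0.1 in a two-sided exact permutation test, the smallest possible).

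COL5A1, a chain of the fibril-regulating collagen V at chr9:134641774-134844843, was at 440, 434 and 497 CPM in the control and 620, 502 and 662 CPM in the silenced libraries. Silenced replicate 2 was close to control replicate 3, and the log2 fold change was 0.38 (SE 0.101, adjusted p = 0.0273). It did not pass without control replicate 1, control replicate 2, silenced replicate 1 or silenced replicate 3. The collagen VI chains COL6A1 and COL6A2 had log2 fold changes of -0.15 (95% interval -0.32 to 0.02) and -0.27 (-0.90 to 0.37), the second from a level of only 2.22 to 4.97 CPM. COL12A1, a fibril-associated collagen, was at 298 ± 4.56 CPM in the control and 320 ± 8.57 CPM in the silenced libraries (SD, n = 3), with a log2 fold change of 0.11 (adjusted p = 0.280).

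Of the 7 adhesive and matricellular genes, FN1, CYR61 and TGFBI rose, THBS1 fell, CTGF did not pass, and SPARC and TNC were below the filter. CYR61, a secreted integrin ligand of the CCN family at chr1:85580761-85583962, was at 148, 134 and 131 CPM in the control and 210, 202 and 199 CPM in the silenced libraries. The groups were far apart against a small spread, with a log2 fold change of 0.56 (SE 0.0729, adjusted p = 0.000882). CTGF, the related CCN protein and, like CYR61, a known YAP target, was at 9.66, 11.6 and 9.22 CPM in the control and 9.86, 9.62 and 8.99 CPM in the silenced libraries. Its groups overlapped, with a log2 fold change of -0.10 (adjusted p = 0.683, 95% interval -0.41 to 0.22). The count ratio of CYR61 to CTGF was 13.7 ± 1.93 in the control and 21.5 ± 0.595 in the silenced libraries (SD, n = 3, two-sided exact permutation test, p = 0.1).

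FN1, fibronectin, the ligand of the ITGA5 receptor, was at 59.2, 73.2 and 80.3 CPM in the control and 93.6, 95.3 and 97.8 CPM in the silenced libraries. The controls varied more than the silenced libraries and stayed below them, and the log2 fold change was 0.43 (SE 0.103, adjusted p = 0.0174). It did not pass without silenced replicate 1 (adjusted p = 0.0554). TGFBI, a secreted adhesion protein named for its induction by TGF-beta, was at 152, 185 and 210 CPM in the control and 234, 233 and 251 CPM in the silenced libraries. Its log2 fold change was 0.39 (SE 0.104, adjusted p = 0.0261), and it did not pass without control replicate 1, control replicate 2, silenced replicate 1 or silenced replicate 3.

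THBS1, thrombospondin 1, which binds cells and activates latent TGF-beta, went the other way, with 45.0, 50.3 and 54.8 CPM in the control and 31.7, 43.6 and 35.8 CPM in the silenced libraries. Silenced replicate 2 was only just under control replicate 1. The log2 fold change was -0.44 (SE 0.117, adjusted p = 0.0278), and it did not pass without control replicate 2, control replicate 3, silenced replicate 1 or silenced replicate 3. THBS1 overlaps FSIP1 on the opposite strand, which had 61 counts over all libraries against 3225 of THBS1. SPARC had 0 to 6 counts in each library, and TNC had 1 count in silenced replicate 1 and 0 elsewhere.

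TIMP2 fell among the protease and inhibitor genes, and TIMP1, TIMP3 and MMP14 did not pass. TIMP2 inhibits matrix metalloproteinases and, together with the membrane protease MMP14, takes part in activating MMP2. It was at 631, 610 and 678 CPM in the control and 519, 483 and 540 CPM in the silenced libraries. All silenced libraries were lower, and the log2 fold change was -0.31 (SE 0.0727, adjusted p = 0.0145), which did not pass without silenced replicate 1. A gene on the same strand, CEP295NL, and an antisense gene are annotated over TIMP2, so that its reads may not all be its own. MMP14 was at 52.8 ± 2.28 CPM in the control and 50.1 ± 2.11 CPM in the silenced libraries (SD, n = 3), with a log2 fold change of -0.07 (95% interval -0.24 to 0.10). TIMP1 and TIMP3 had log2 fold changes of 0.01 (95% interval -0.23 to 0.25) and -0.19 (-0.51 to 0.12).

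**Figure D3:**
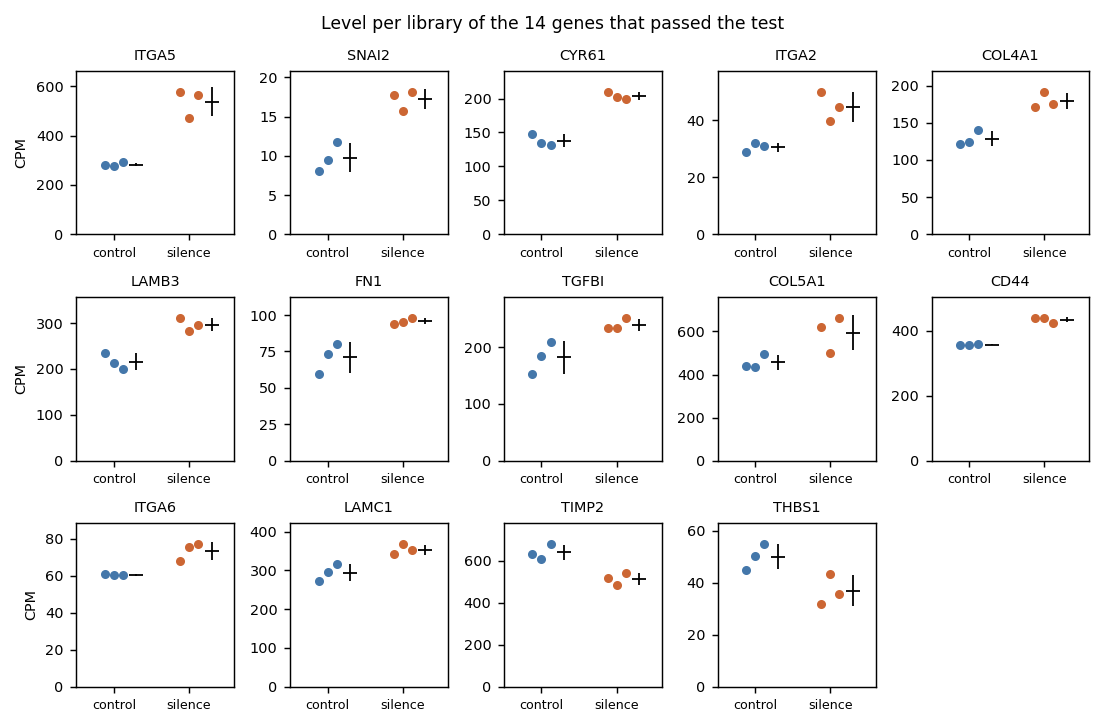
Level in CPM of the 14 genes that passed the test, with a point for each library and the mean and SD of 3 libraries beside them. In every panel the control and silenced points are separate, with the widest relative gap for ITGA5, at 276 to 291 CPM against 469 to 576 CPM.

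Of the 7 EMT and cell surface genes, SNAI2 and CD44 rose, and CDH1, CDH2, VIM, ZEB1 and EPCAM did not pass. SNAI2 encodes Slug, a repressor of E-cadherin, and was at 8.12, 9.50 and 11.7 CPM in the control and 17.8, 15.7 and 18.1 CPM in the silenced libraries. The groups were separate and the log2 fold change was 0.80 (SE 0.145, adjusted p = 0.00485), or 1.74-fold. CD44, the hyaluronan receptor at chr11:35138870-35232402, was at 355, 357 and 358 CPM in the control and 438, 438 and 424 CPM in the silenced libraries. The log2 fold change was 0.28 (SE 0.0620, adjusted p = 0.0120), which did not pass without silenced replicate 1, and an antisense gene is annotated opposite it.

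CDH1, E-cadherin, had only 8, 8 and 14 counts in the control and 11, 18 and 19 counts in the silenced libraries, or 0.822, 0.691 and 0.828 CPM against 1.07, 1.66 and 1.41 CPM. Every silenced library was higher, but at this depth the log2 fold change of 0.82 (SE 0.328, adjusted p = 0.112, 95% interval 0.10 to 1.54) did not pass. VIM, vimentin, was the member with the highest level per length, 265 ± 11.7 CPM per kb in the control and 252 ± 10.5 in the silenced libraries (SD, n = 3). Its log2 fold change was -0.07 (adjusted p = 0.493, 95% interval -0.22 to 0.08). CDH2, N-cadherin, had a log2 fold change of -0.14 (adjusted p = 0.429, 95% interval -0.40 to 0.11), ZEB1 one of 0.25 (adjusted p = 0.125, 0.02 to 0.48) and EPCAM one of -0.17 (adjusted p = 0.659, -0.70 to 0.35).

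CDH2 counts exceeded those of CDH1 by 23.7 ± 2.02 times in the control and 12.2 ± 1.19 times in the silenced libraries (SD, n = 3). The two-sided exact permutation test gave p = 0.1, the smallest possible. This ratio rests on 8 to 19 counts of CDH1 per library, and neither gene passed. Marker lists of epithelial and other cell types were summed beside these genes. The sum of the 7 epithelial markers was 4503 to 4800 CPM in the control and 3584 to 3631 CPM in the silenced libraries, with KRT18, KRT7 and MUC1 lower (log2 fold changes -0.43, -0.57 and -0.54, adjusted p = 0.00266, 0.00116 and 0.0359). The 8 fibroblast markers summed to 29.5 to 35.2 CPM in the control and 35.1 to 42.6 CPM in the silenced libraries, nearly all of it COL1A1, with PDGFRA and THY1 at 0 in every library. The 5 endothelial markers summed to 4.42 to 6.39 and 4.07 to 4.39 CPM, with KDR at 0. The 5 leukocyte markers summed to 124 to 141 and 225 to 254 CPM, which was nearly all CD68 (log2 fold change 0.88, adjusted p = 9.93e-05), with CD3E and LYZ at 0 in every library. Their part in the results on the matrix and EMT genes was not tested.

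**Figure D4:**
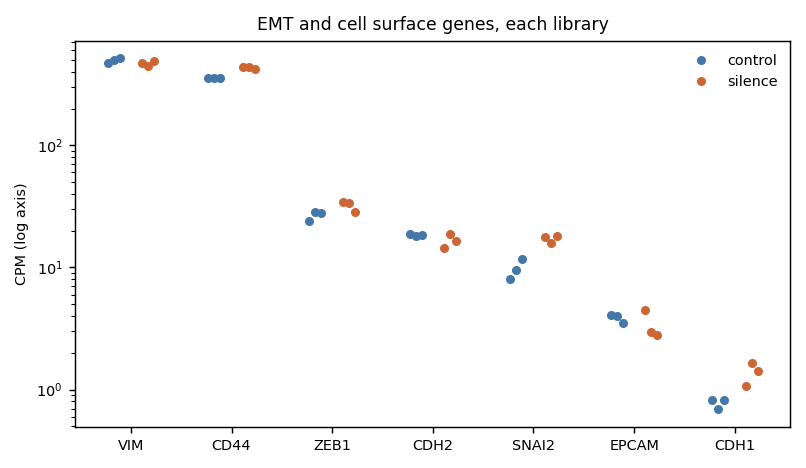
Level in CPM (log axis) of the 7 EMT and cell surface genes in each of the 6 libraries. SNAI2 and CD44 are separated between groups and passed the test, CDH1 is separated at 0.691 to 1.66 CPM without passing, and VIM overlaps.

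Other genes of the same pathways were counted by 12 lists that held none of the 40 genes. Of 249 listed genes, 245 were in the table and 190 were tested, of which 34 rose (17.9%) and 23 fell (12.1%), with a median log2 fold change of 0.04. The shares over all tested genes were 8.75% and 8.27%, and the counts of each list below stand against the same shares. The lists, too, were chosen with earlier results of these data known. With library size as the only scaling, 42 rose and 17 fell. Without silenced replicate 1, the counts were 20 and 7, and 14, 15 and 12 fell without control replicate 1, control replicate 3 and silenced replicate 2. The genes called with a fold change over 2 numbered 5.

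Nearest to the integrins, 4 other subunits were tested, of which 2 rose (ITGB2, log2 fold change 0.65, and ITGA7, 0.87) and 1 fell (ITGAE, -0.41). Of 32 genes for focal adhesion and integrin adaptor proteins, 6 rose and 5 fell. TNS1, a tensin that links integrins to actin, was called, at 17.8 CPM in the control and 38.8 CPM in the silenced libraries (log2 fold change 1.12, SE 0.159). CAV1, the coat protein of caveolae, was called at 13.3 and 27.0 CPM (1.03, SE 0.116). TNS4 rose with a log2 fold change of 0.61, and PTK2 (focal adhesion kinase), TES and FERMT2 rose with 0.40, 0.41 and 0.29. The 5 that fell were PXN, the adaptor paxillin (-0.51), the talins TLN1 and TLN2, which bind integrin tails (-0.38 and -0.30), PARVB (-0.39) and RSU1 (-0.30).

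Among matrix genes, 2 of 16 other basement membrane genes rose (LAMA1, 0.59, and COL4A5, 0.36) and 1 fell (LAMC3, -0.44). None of 7 other fibrillar and associated collagens passed in edgeR or DESeq2, and 3 had an unadjusted p under 0.05 in edgeR. Of 20 collagen processing enzymes and chaperones, 5 rose and 2 fell. P4HA2, a prolyl hydroxylase, PLOD2, a lysyl hydroxylase, and LOXL2, which crosslinks collagen, rose with log2 fold changes of 0.56, 0.51 and 0.53, as did LOX (0.88) and MIA3 (0.33), and the procollagen protease BMP1 and SEC23A fell with -0.42 and -0.29. Of 16 other matricellular and elastic fibre genes, 3 rose (SPOCK1, 0.99, THBS3, 0.36, and LTBP4, 0.34) and 4 fell (EFEMP1, -0.46, LTBP3, -0.30, and the fibrillins FBN1, -0.28, and FBN2, -0.32).

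Of 16 other matrix proteases and inhibitors, 3 rose and 1 fell. TIMP4 rose with a log2 fold change of 0.72 and ADAM17 with 0.38, ADAM12 fell with -0.37, and MMP11 was called from a low level, 0.829 CPM in the control and 1.74 CPM in the silenced libraries (1.02, SE 0.308). Of 7 hyaluronan genes, HYAL3 rose (0.65), and TMEM2 and HYAL2 fell (-0.42 and -0.35).

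The list of other epithelial junction and identity genes held 22 tested genes, of which 1 rose and 4 fell. The 4 that fell were PKP3 and PKP2, plakophilins of desmosomes (-0.40 and -0.49), the splicing factor ESRP2 (-0.47) and PVRL1, a nectin (-0.56), and the gene that rose was the claudin CLDN12 (0.36). Of 7 other EMT transcription factors, ZEB2 rose from 1.72 to 3.36 CPM (0.94) and TCF3 fell (-0.41).

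Among 22 TGF-beta ligands, SMADs and targets, 4 rose and 2 fell. INHBA, a subunit of activin, was called, with 0, 1 and 7 counts in the control and 41, 55 and 76 counts in the silenced libraries, and its log2 fold change of 4.53 (SE 0.493, adjusted p = 0.000295) rests on those few control counts. SMAD3 and BHLHE40 rose with 0.52 and 0.54, and TPM2, a tropomyosin, and the inhibitory SMAD6 fell with -0.72 and -0.41. Among 22 YAP/TAZ and TEAD genes, 6 rose and 0 fell, with 9 at an unadjusted p under 0.05 and 5 passing in DESeq2. The list mixes regulators and targets of YAP, and YAP activity was not tested. ANKRD1, a YAP target, was called, at 1.06 CPM in the control and 3.85 CPM in the silenced libraries (1.84, SE 0.257), and AMOTL1, PTPN14, CRIM1, AMOTL2 and STK4 rose with 0.44, 0.31, 0.40, 0.28 and 0.26.

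**Figure D5:**
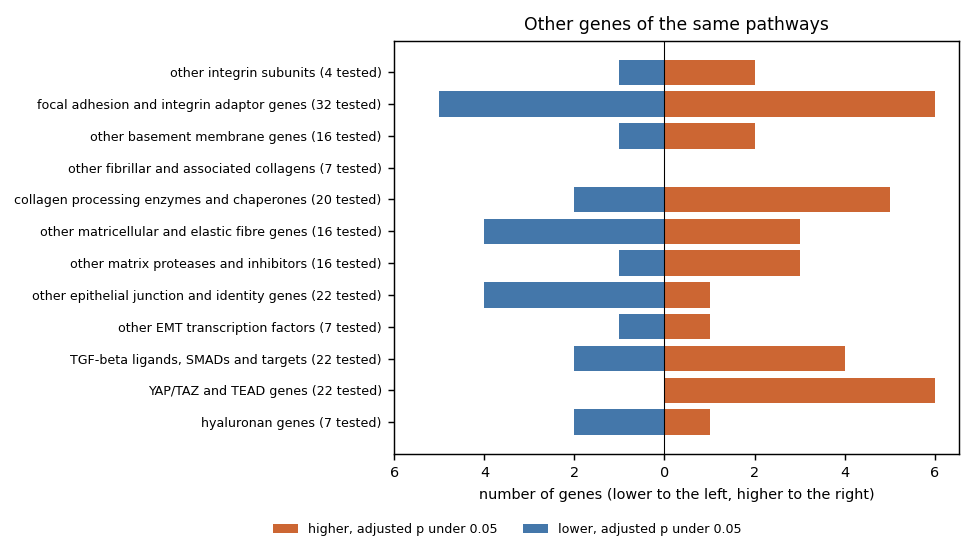
Number of tested genes that rose and fell in each of the 12 pathway lists. In the list of YAP/TAZ and TEAD genes 6 rose and 0 fell, in that of epithelial junction and identity genes 1 rose and 4 fell, and the difference between lists was not tested.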

How the data were processed

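RNA-Seq of 6 libraries labelled A549 was analysed, 3 control and 3 silenced, grouped by the treatment label. Per the labels and the study's methods, the authors made Ion Proton libraries from Trizol-extracted total RNA, mapped and counted the reads with MapSplice, and compared the groups with DESeq. The deposited values are raw counts per gene, without normalization, and the submitters' processing notes name GRCh37. Strand use and the treatment of reads with several matches are not given in the sources used here, and overlapping genes may share reads.

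Counts were filtered with filterByExpr and tested with edgeR 4.0.16 (TMM, quasi-likelihood F test, R 4.3.3), with Benjamini-Hochberg adjustment over 15250 genes. Standard errors were derived from the F statistic and the fold change, and intervals are 95% intervals. DESeq2 1.42.0 was an alternative. Both were tested on simulated data first. Tables were joined in pandas 2.3.3 (numpy 2.4.6, Python 3.11.15), and ratios were tested in scipy 1.17.1. Library totals ranged from 9738291 to 17742643 counts.

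Gene positions, overlapping genes, exon lengths and 3′-UTRs came from GENCODE 29 on GRCh38, and promoter sequences from RefSeq on GRCh38.p14. Positions are therefore not on the build of the counts. All 40 members were described. Of the listed pathway genes, those called and up to 4 per list with the smallest adjusted p under 0.05 were named, and others only to complete short counts, after their values were seen. 1 gene of these lists is counted but not reported by name here. The members and lists were chosen with earlier results of these data known. The background at 10 CPM, the genes CDKN2A and MTAP, the motifs and the position of a word within the 3′-UTR were chosen after values had been seen.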

Additional observations from a re-analysis of the deposited data

How the results depend on the processing

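In 13 other settings (RLE size factors, library size only, DESeq2, all genes with at least 1 count, at least 10 counts in every library, mRNA genes only, the replicate number as a block and each of 6 libraries left out), all 14 genes that passed kept their direction, and 6 stayed under 0.05 throughout (ITGA5, ITGA2, LAMB3, COL4A1, CYR61 and SNAI2). Leaving out 1 library, 7 to 11 members rose and 0 to 2 fell, 0 to 1 had a fold change over 2 (ITGA5, without silenced replicate 2), and 20 to 29 listed pathway genes rose and 7 to 17 fell. These fits have fewer samples. At an adjusted p under 0.01, 6 members rose and 0 fell, and 18 listed genes rose and 6 fell. The median of the members was 0.09 to 0.15 in every setting, and library size alone moved the median of all genes to 0.03. ITGB1 passed in 7 settings and ITGA3 in 6, DESeq2 among them, and no other member that had not passed did so.

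Of the 24 tested members that had not passed, 8 changed sign in at least 1 setting and the cause was not tested. Over the fits that left out 1 library, the log2 fold change ranged from -0.0049 to 0.15 for ITGB4, from -0.23 to 0.13 for ITGB8, from -0.11 to 0.078 for LAMA3, from -0.19 to 0.011 for LAMA5, from -0.46 to 0.022 for COL6A2, from -0.17 to 0.0065 for CTGF, from -0.091 to 0.12 for TIMP1 and from -0.32 to 0.0095 for TIMP3. With library size only, ITGB8 was at 0.0023.

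The replicate numbers are shared by the groups in the labels, but the study numbers the silenced libraries in another order elsewhere, and the deposited numbers are used throughout. The deviations of same-numbered libraries correlated at 0.124, 0.149 and 0.0670. Every library correlated best with its own number, but the values are low, and pairing was not tested. Under the other numbering, the same correlations are 0.0182, -0.0781 and -0.0132. With the replicate block, 13 members rose and 3 fell, and 43 listed genes rose and 27 fell. Depth limits CDH1, ITGB3, ITGB8, COL6A2 and EPCAM, all under 7 CPM, and SPARC and TNC could not be tested.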

Other observations

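The letters CCAATAA were picked in earlier work on these same counts as a word in the 3′-UTRs of mRNAs that fell, so what follows is a description and no independent support. In GENCODE 29, 6 of the 38 tested genes hold it in an annotated 3′-UTR: ITGA3, ITGAV, ITGB8, LAMB2, COL6A2 and THBS1. Their median log2 fold change was -0.20, with 1 lower (THBS1) and 0 higher, and that of the other 32 members was 0.19, with 12 higher and 1 lower (TIMP2). Over all tested genes with an annotated 3′-UTR, the median was -0.08 for the 1469 with the word and 0.01 for the 10087 without it. The sites of the 4 members below are shown because they differ in place, with the word in capitals.
ITGA3: ctcacggcgaCCAATAAacagctccca
LAMB2: ggcagggcccCCAATAAaccagtgtga
COL6A2: aagccctgacCCAATAAaggctttgaa
THBS1: agaagtattcCCAATAAggaaatagca
In the first 3 the word is followed by A, which makes AATAAA, the letters of the canonical polyadenylation signal, and it ends 16, 17 and 15 bases before the annotated transcript end. ITGAV and ITGB8 hold it once too, followed by A, 1806 and 3583 bases before the end. THBS1 holds it in 2 places, 2434 and 1358 bases before the end and each time followed by G, and the former is shown. LAMB2, with the word near its end, had a log2 fold change of 0.21 and did not pass.

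Over all tested genes, the 516 with the word ending at most 40 bases before a transcript end were at a median of -0.22 on the log2 scale, and 34.7% of them fell. Of the 953 with the word only elsewhere in the 3′-UTR, 14.9% fell, and the median was -0.03. Of the 10087 without it, 7.32% fell. The limit of 40 bases was chosen after the word's places in the members had been seen, and no test was made of the difference.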
